A study of Mus musculus with 16 samples.

Results

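The 10 genes of prostaglandin synthesis, sensing and breakdown were followed in mouse intervertebral discs, the cushions between the vertebrae. They were taken by gene name from a table of 49315 genes and all 10 were found: Pla2g4a and Pla2g5, which release the fatty acid precursor, Ptgs1 and Ptgs2, the cyclooxygenases, Ptges, Ptgis and Ptgds, the terminal synthases, Ptger2 and Ptger4, receptors for prostaglandin E2, and Hpgd, which inactivates prostaglandins. RNA had been sequenced in bulk from 16 mice, with 4 tail discs of each mouse pooled, so that each library stood for 1 animal. The groups were wild-type mice with intact discs (3 mice), wild-type mice with injured discs (4 mice), Adam8EQ mice with intact discs (4 mice) and Adam8EQ mice with injured discs (5 mice). Adam8 encodes a membrane-anchored metalloprotease, the EQ allele is described no further in the labels, and the series title names DBA, an inbred strain, beside the mutant. The way the discs were injured, the time from injury to sampling, and the age and sex of the mice are not given in the sources used here.

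Prostaglandins are lipid messengers made on demand. Phospholipases free arachidonic acid from membranes, a cyclooxygenase turns it into the unstable intermediate prostaglandin H2, and a terminal synthase then decides the product, which is prostaglandin E2 for Ptges, prostacyclin for Ptgis and prostaglandin D2 for Ptgds. Ptgs1 is the cyclooxygenase that many tissues make constantly, whereas Ptgs2 and Ptges are best known as genes switched on by inflammatory signals, and prostaglandin E2 is studied in the disc as a mediator of inflammation and pain.

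All levels are TPM, values scaled by gene length and by library total, so that levels of different genes can be set side by side. Changes are differences of mean log2(TPM + 1), with the moderated standard error (SE) of limma, and understate the change of genes at low levels. Adjusted p-values are limma's after Benjamini-Hochberg adjustment over 24188 tested genes, and a gene is said to have risen or fallen where its adjusted p was under 0.05. The libraries implied 10208901 to 24817416 reads each. Markers of chondrocyte-like disc cells (8 genes) summed to between 24872 and 34025 TPM in intact discs of both genotypes, as markers of the labelled tissue, and to between 6214 and 24516 TPM in injured discs. Much of that sum was Chad, at 13184 to 18411 TPM in intact and 1008 to 7784 TPM in injured discs. The list was split: with injury in mutants 1 marker rose (Hapln1), against 13.1% of all tested genes. Comp, Chad and Cnmd fell, which is 3 of 8 against 17.7%, and 4 were not called. The injured wild-type libraries were not alike. In Ptgs2, Ptges and Ptger2, mice 1 and 2 lay near the intact libraries, and mice 3 and 4 lay within the range of the injured mutants. The numbers in the names of these libraries are consecutive for mice 1 and 2 and for mice 3 and 4, with a break between the pairs. Whether the pairs differ in anything besides the mice was not tested. Adam8 itself stood at 0.956 to 2.97 TPM in all intact discs, at 3.52 to 66.3 TPM in injured wild-type discs and at 16.2 to 264 TPM in injured mutant discs, and its level does not check the allele. In bulk tissue, fewer cells of a type and less RNA per cell cannot be told apart.

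In Adam8EQ mice, 9 of the 10 genes changed with injury, against a background of 30.8% of all tested genes. The members and gene lists were chosen with earlier results of these data known, so such counts are descriptions and not set tests. All 10 passed the filter on low values (1 TPM in at least 3 libraries), Ptger2 through injured discs alone. Ptgs2, Ptges, Ptger2, Ptger4 and Pla2g4a rose, which is 5 of 10 against 13.1% of all tested genes. Ptgs1, Ptgis, Ptgds and Pla2g5 fell, which is 4 of 10 against 17.7%. Over all called genes falls outnumbered rises (42.6% higher), a balance that turned with median-of-ratios scaling (52% higher), where the same number of members was called. Hpgd was the member that did not pass the test. The injured and intact mutant libraries did not overlap for 9 of the 10 members, against 27.2% of all tested genes. These are the same 9 genes that were called, so the separation restates the calls and is no separate support. In wild-type mice 0 of the 10 genes passed the test, against 0.116% of all tested genes, and 5 had an unadjusted limma p under 0.05 (Ptgs2, Ptges, Ptgis, Ptger4 and Pla2g4a), against 17.2%. The members' median log2 change was 0.44 in mutants and 0.27 in wild type, beside -0.08 and 0.01 over all tested genes. The mutant libraries carry 2 kinds of name. With only those whose names begin with A8 (2 injured, 2 intact), 6 of the 9 calls remained, and with only those beginning with M (3 injured, 2 intact), Pla2g5 alone remained, with each of the 9 genes keeping its direction in both subsets.

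**Figure D1:**
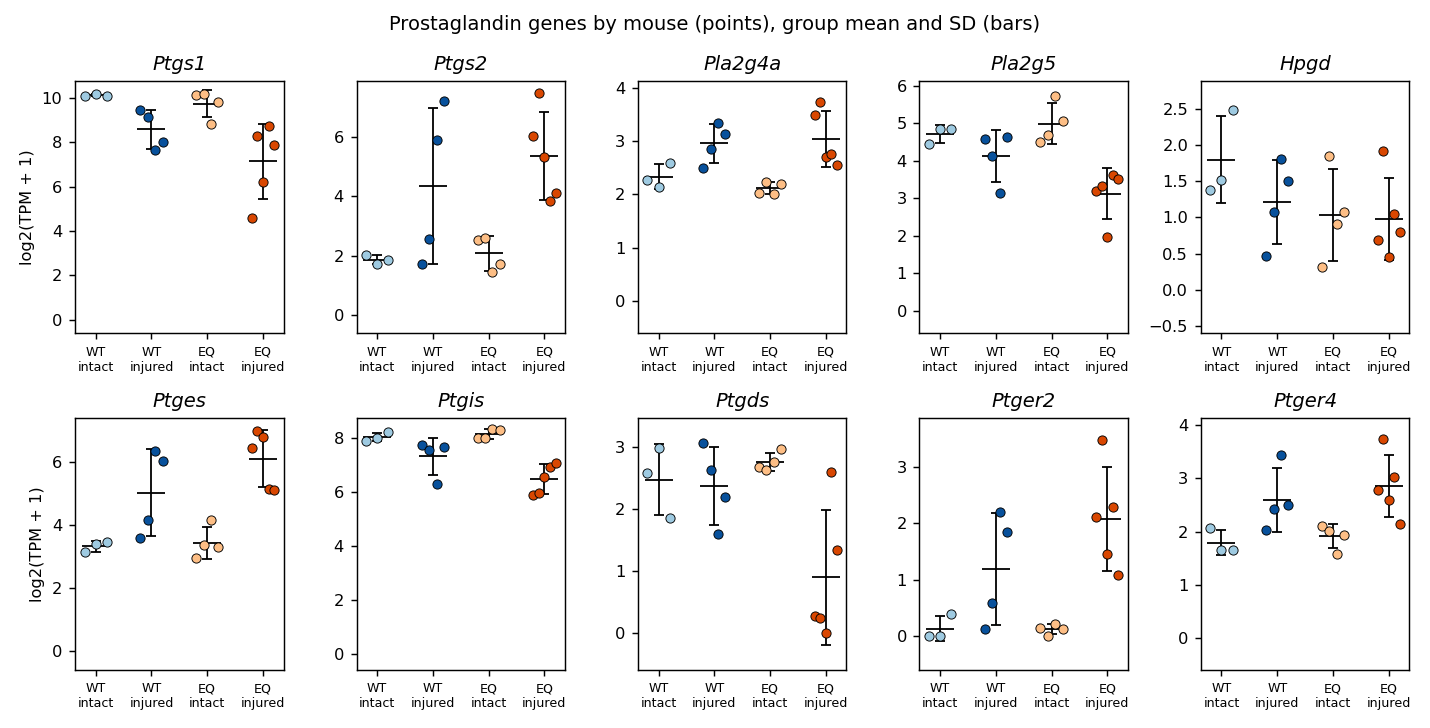
Levels of the 10 genes as log2(TPM + 1) on the vertical axes, 1 point per mouse (left to right by mouse number), in wild-type (WT) and Adam8EQ (EQ) discs; horizontal ticks are group means and bars are SDs. The axes differ between panels. Injured EQ points lie wholly above or below the intact EQ points in 9 panels, and Hpgd is the panel in which they overlap.

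Cytosolic phospholipase A2, encoded by Pla2g4a (ENSMUSG00000056220, chromosome 1, 149829618 to 149961290, minus strand of GRCm38), cuts arachidonic acid from membrane lipids when calcium rises. Pla2g4a stood at 3.10, 3.69, 3.01 and 3.59 TPM in intact mutant mice 1 to 4. In injured mutants it stood at 10.2, 12.2, 5.51, 5.73 and 4.86 TPM in mice 1 to 5. Every injured mutant was thus above every intact mutant, with mice 1 and 2 the highest. Pla2g4a rose with injury in mutants by 0.93 ± 0.25 (SE) on the log2 scale (limma, adjusted p = 0.0133, n = 5 and 4). With only the mutants named A8 the log2 change was 1.47, and with only those named M it was 0.57 and did not pass the test (limma, adjusted p = 0.232). In wild type, Pla2g4a was at 3.82, 3.39 and 5.04 TPM in intact mice and at 4.66, 6.20, 9.19 and 7.83 TPM in injured mice 1 to 4, with injured mouse 1 inside the intact range. The wild-type log2 change of 0.63 ± 0.29 (SE) did not pass the test (limma, adjusted p = 0.284).

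Pla2g5 (ENSMUSG00000041193, chromosome 4, 138799244 to 138863482, minus strand) encodes a secreted phospholipase A2, and it went the other way. Its levels were 21.5, 24.8, 51.7 and 32.0 TPM in intact mutants and 8.20, 8.98, 2.87, 11.3 and 10.3 TPM in injured mutants. The groups were well apart, with the lowest injured value in mouse 3. Pla2g5 fell with injury in mutants by 1.87 ± 0.37 (SE) on the log2 scale, a linear mean 3.89 times lower (limma, adjusted p = 0.00246). With only the mutants named A8 the fall of 1.33 did not pass the test (limma, adjusted p = 0.0592). In wild type, Pla2g5 was at 20.7, 27.7 and 27.6 TPM in intact discs and at 22.8, 16.4, 7.83 and 23.7 TPM in injured discs, so that mice 1 and 4 lay inside the intact range. The wild-type log2 change was -0.59 ± 0.42 (SE) and did not pass the test (limma, adjusted p = 0.47). Pla2g2a, another secreted phospholipase gene, lies within the span of Pla2g5 on the opposite strand without sharing exons, and is annotated as a polymorphic pseudogene in the reference strain. Pla2g2a held 63.8% to 84.5% of the summed TPM of 20 phospholipase A2 genes in intact discs, where Pla2g5 held 4.06% to 6.44% and Pla2g4a 0.338% to 1.09%. In mutants Pla2g2a fell with injury by 1.56 ± 0.56 (SE) on the log2 scale (limma, adjusted p = 0.0461), from 357 to 752 TPM in intact discs to 32.0 to 294 TPM in injured discs.

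Of 22 other genes that release arachidonic acid or return it to membranes, 16 passed the filter on low values, and in mutants 3 rose and 3 fell with injury, with a median log2 change of -0.22. These 6 of 16 are near the share of all tested genes called in that comparison (30.8%). Acsl4, which activates arachidonic acid for return to lipids, rose by 0.78 ± 0.19 (SE, limma, adjusted p = 0.00809). Pla2g12b fell by 1.09 ± 0.27 (SE, limma, adjusted p = 0.00861). In wild type 0 of the 16 passed the limma test after adjustment.

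In intact discs the cyclooxygenases stood far apart in level. Ptgs1 (ENSMUSG00000047250, chromosome 2, 36230426 to 36252272, plus strand) stood at 1097, 1151 and 1096 TPM in intact wild-type mice and at 1129, 1145, 457 and 902 TPM in intact mutants. By level it ranked between 60 and 187 among the 49315 genes of an intact library, and its group mean was the highest of the 10 members in all 4 groups. In injured mutants 1 and 3, however, Ptges and Ptgis exceeded Ptgs1. In injured mutants Ptgs1 was at 23.2, 312, 72.5, 421 and 232 TPM. All 5 injured values lay below the lowest intact one, that of mouse 3 at 457 TPM, and injured mouse 1 was the lowest of all. Ptgs1 fell with injury in mutants by 2.60 ± 0.68 (SE) on the log2 scale, a linear mean 4.28 times lower (limma, adjusted p = 0.0109). With only the mutants named M the fall of 1.73 did not pass the test (limma, adjusted p = 0.164). In injured wild-type mice 1 to 4 Ptgs1 was at 704, 567, 202 and 260.3 TPM, each below all 3 intact mice, a separation towards lower values found in 6.34% of all tested genes. The wild-type log2 change of -1.55 ± 0.78 (SE) did not pass the test (limma, adjusted p = 0.319), with a linear mean 2.57 times lower. An unverified gene model, Gm43621, shares exon sequence with Ptgs1 on the opposite strand and stood at 0.854 to 51.3 TPM. Whether the counting used strand is not given in the sources used here, and reads of such a pair cannot be told apart without it.

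Ptgs2 (ENSMUSG00000032487, chromosome 1, 150100031 to 150108227, plus strand), the inducible cyclooxygenase, was scarce in intact discs. It stood at 3.04, 2.26 and 2.63 TPM in wild type and at 4.77, 5.08, 1.74 and 2.30 TPM in mutants. In injured mutants Ptgs2 was at 63.8, 177, 38.8, 13.3 and 16.2 TPM. Even the lowest injured mutant, mouse 4, was above every intact disc of the study, and mouse 2 was the highest. Ptgs2 rose with injury in mutants by 3.27 ± 0.97 (SE) on the log2 scale, a linear mean 17.8 times higher (limma, adjusted p = 0.0198). The rise was 4.18 with only the mutants named A8 (limma, adjusted p = 0.0859) and 2.83 with only those named M (limma, adjusted p = 0.217), and passed in neither. Injured wild-type mice 1 to 4 had Ptgs2 at 2.31, 4.85, 58.4 and 146 TPM. Mice 3 and 4 were far above the intact discs, mouse 1 lay inside the intact range and mouse 2 was slightly above it. The wild-type log2 change was 2.48 ± 1.10 (SE, limma, adjusted p = 0.271), and the linear mean was 20.05 times higher, carried by mice 3 and 4. Leaving out a mouse moved the wild-type log2 change between 1.53 and 3.36, and it passed the test in none of those fits.

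The balance of the cyclooxygenases can be read within each library. Ptgs1 exceeded Ptgs2 by 361 to 508 times in intact wild-type discs and by 225 to 392 times in intact mutant discs. In injured mutants 1 to 5 the ratio was 0.364, 1.77, 1.87, 31.6 and 14.4, so that Ptgs2 exceeded Ptgs1 in mouse 1 and stayed below it in the other mice. In injured wild-type mice 1 to 4 the ratio was 305, 117, 3.46 and 1.78. Ptgs2 therefore made up 0.196% to 0.442% of the summed cyclooxygenase TPM in intact discs, and 3.06% to 73.3% in injured mutants. In injured wild-type discs its part was 0.326%, 0.848%, 22.4% and 35.99% in mice 1 to 4.

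**Figure D2:**
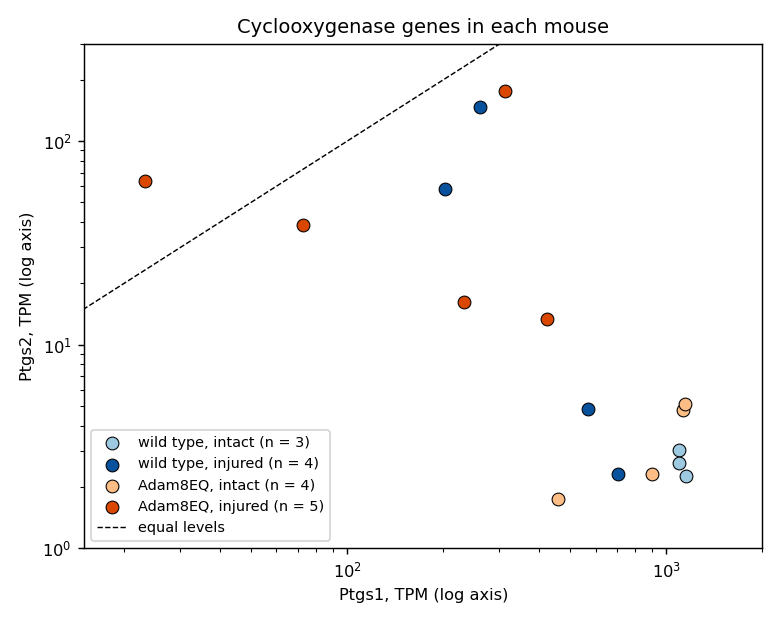
Ptgs2 against Ptgs1 in TPM, both on log axes, 1 point per mouse, colored by group; the dashed line marks equal levels. Intact discs sit at the lower right, injured mutants spread to the left and up, and injured mutant 1 alone lies above the line with 63.8 TPM of Ptgs2 and 23.2 TPM of Ptgs1.

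The sequences before the start sites of Ptgs1, which fell, and of Ptgs2 and Ptges, which rose, are shown because these genes moved in opposite directions in the same libraries. Each is the 250 bases before the RefSeq start on GRCm38.p6, read 5′ to 3′ on the strand of the gene, from the reference genome and not from these mice. The windows are chr2:36230176-36230425 (plus strand) for Ptgs1, chr1:150099781-150100030 (plus strand) for Ptgs2 and chr2:30903298-30903547 (minus strand) for Ptges. Capitals mark matches to a GC box.
Ptgs1: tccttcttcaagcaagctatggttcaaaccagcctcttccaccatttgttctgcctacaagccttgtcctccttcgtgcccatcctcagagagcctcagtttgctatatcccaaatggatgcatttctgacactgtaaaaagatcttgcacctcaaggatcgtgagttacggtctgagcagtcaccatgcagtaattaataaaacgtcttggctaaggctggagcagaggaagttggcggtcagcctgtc
Ptgs2: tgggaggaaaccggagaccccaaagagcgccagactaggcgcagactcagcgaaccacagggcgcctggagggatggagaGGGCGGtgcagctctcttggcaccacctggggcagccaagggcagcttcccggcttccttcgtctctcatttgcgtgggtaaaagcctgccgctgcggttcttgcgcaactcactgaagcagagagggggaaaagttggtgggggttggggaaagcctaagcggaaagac
Ptges: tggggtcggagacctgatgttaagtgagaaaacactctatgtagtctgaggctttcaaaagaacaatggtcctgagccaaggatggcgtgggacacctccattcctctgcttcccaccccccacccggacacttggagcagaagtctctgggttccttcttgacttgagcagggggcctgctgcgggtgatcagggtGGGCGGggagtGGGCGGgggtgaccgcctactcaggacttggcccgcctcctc

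Such windows were searched on both strands for 6 motifs, and Ptgs1 held none of them. Ptgs2 held a GC box whose first base lies at position -170 from the start, and Ptges held 2, at -53 and -42, with no overlap between matches. The GC box, GGGCGG, was found in 32.7% of all 32851 windows of this length, and the CCAAT motif in 33.8%. The TATA box, spelled TATAAA, was found in 12.4%. The core of the cyclic AMP element, TGACG, was found in 17.8%. The E box, CACGTG, was found in 6.0% and the NF-kB consensus in 3.9%. The GC content was 48.0% for Ptgs1, 61.6% for Ptgs2 and 59.6% for Ptges, beside a median of 52.4% over all windows. Among the other members that rose, Ptger4 held GC boxes (66.8% GC), while Ptger2 (38.0%) and Pla2g4a (43.2% and 39.6% in its windows) held none. Of those that fell, Ptgds (58.4%) and Pla2g5 (55.2% and 57.2%) held no GC box, and Ptgds held an NF-kB match. Ptgis, which also fell, had no RefSeq entry and was not searched. Hpgd, which was not called, held a GC box (56.8%). The CCAAT motif was found in Ptger2, in Ptger4 and in each window of Pla2g5, and TATAAA in a window of Pla2g4a. A match describes letters and does not show a bound site, and a missing match says only that these letters are not in the window.

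Among the terminal synthases, Ptges (ENSMUSG00000050737, chromosome 2, 30889471 to 30929863, minus strand), the inducible microsomal prostaglandin E synthase that works with Ptgs2, rose. It was at 7.69, 9.35 and 9.97 TPM in intact wild-type discs and at 6.69, 9.12, 16.5 and 8.75 TPM in intact mutants. In injured mutants Ptges was at 84.3, 125, 110 and, in mice 4 and 5, 34.1 and 33.6 TPM. The groups did not overlap, and mice 1 to 3 formed the upper range. Ptges rose with injury in mutants by 2.66 ± 0.55 (SE) on the log2 scale, a linear mean 7.53 times higher (limma, adjusted p = 0.0032). With only the mutants named M the log2 change of 1.97 did not pass the test (limma, adjusted p = 0.166). In injured wild-type mice Ptges was at 10.9, 16.6, 80.0 and 63.8 TPM, each above all 3 intact mice, a separation towards higher values found in 9.22% of all tested genes. Its wild-type log2 change of 1.70 ± 0.62 (SE) did not pass the test (limma, adjusted p = 0.209).

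Prostacyclin synthase, encoded by Ptgis (ENSMUSG00000017969, chromosome 2, 167191805 to 167240604, minus strand), was the most abundant terminal synthase of intact discs. It stood at 239, 257 and 296 TPM in intact wild type and at 256, 258, 327 and 316 TPM in intact mutants. In injured mutants Ptgis was at 58.0, 61.8, 93.7, 121 and 135 TPM, all well below the intact discs. Ptgis fell with injury in mutants by 1.68 ± 0.29 (SE) on the log2 scale, a linear mean 3.08 times lower, which had the smallest adjusted p of the 10 genes (limma, adjusted p = 0.00137). The fall was 1.47 with only the mutants named M (limma, adjusted p = 0.055). Ptgis in injured wild-type mice was at 215, 187, 78.4 and 201 TPM. All 4 were below the intact mice, with mouse 3 apart from the other 3. The wild-type log2 change was -0.72 ± 0.33 (SE) and did not pass the test (limma, adjusted p = 0.285). The transcript 1110018N20Rik shares exon sequence with Ptgis on the opposite strand and stood at 0.546 to 13.0 TPM.

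Ptgds (ENSMUSG00000015090, chromosome 2, 25466709 to 25470046, minus strand), the lipocalin-type prostaglandin D synthase, was low throughout. Intact mutants were at 5.40, 5.15, 5.73 and 6.76 TPM. Injured mutants 1 and 2 were at 0.209 and 0.178 TPM, mouse 3 was listed at 0, and mice 4 and 5 were at 5.05 and 1.52 TPM. Injured mouse 4 was thus only slightly below the lowest intact mutant. Ptgds fell with injury in mutants by 1.86 ± 0.47 (SE) on the log2 scale (limma, adjusted p = 0.00892). With a pseudocount of 0.1 TPM in place of 1 the fall was 3.30, and with only the mutants named M it was 1.54 and did not pass the test (limma, adjusted p = 0.19). The values rest on few reads, with an implied 0 to 27.9 reads in injured mutants and 22 to 36 in intact mutants. In wild type the intact mice (4.94, 6.86 and 2.59 TPM) and the injured mice (7.38, 5.16, 2.01 and 3.56 TPM) overlapped, with a log2 change of -0.10 ± 0.53 (SE, limma, adjusted p = 0.944).

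Together with Hpgds and Tbxas1, the genes of the blood-cell type prostaglandin D synthase and of thromboxane synthase, these genes give the mix of terminal synthases in a library. Ptgis held 91.3% to 94.1% of the summed TPM of the 5 genes in intact discs of both genotypes, and Ptges held 2.44% to 4.62%. In injured mutants 1 to 5 the part of Ptgis was 36.1%, 28.9%, 43.4%, 66.0% and 74.3%, and that of Ptges was 52.5%, 58.5%, 50.7%, 18.6% and 18.4%. Ptges was therefore the larger of the pair in injured mutants 1 to 3 and the smaller in mice 4 and 5. In injured wild-type mice 1 to 4 the part of Ptges was 4.52%, 7.62%, 43.0% and 22.6%. The summed level of the 5 genes was 258 to 358 TPM in intact discs and 161 to 282 TPM in injured discs.

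Of 8 other prostanoid synthase genes, all tested, 3 rose with injury in mutants and 0 fell, against 30.8% of all tested genes called in either direction, with a median log2 change of 0.01. Tbxas1 rose by 1.28 ± 0.34 (SE, limma, adjusted p = 0.0114) and Hpgds by 1.01 ± 0.28 (SE, limma, adjusted p = 0.0139). Ptges3, the cytosolic prostaglandin E synthase that is also a chaperone partner, rose by 0.46 ± 0.11 (SE, limma, adjusted p = 0.00848). In wild type 0 of the 8 passed the limma test after adjustment.

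**Figure D3:**
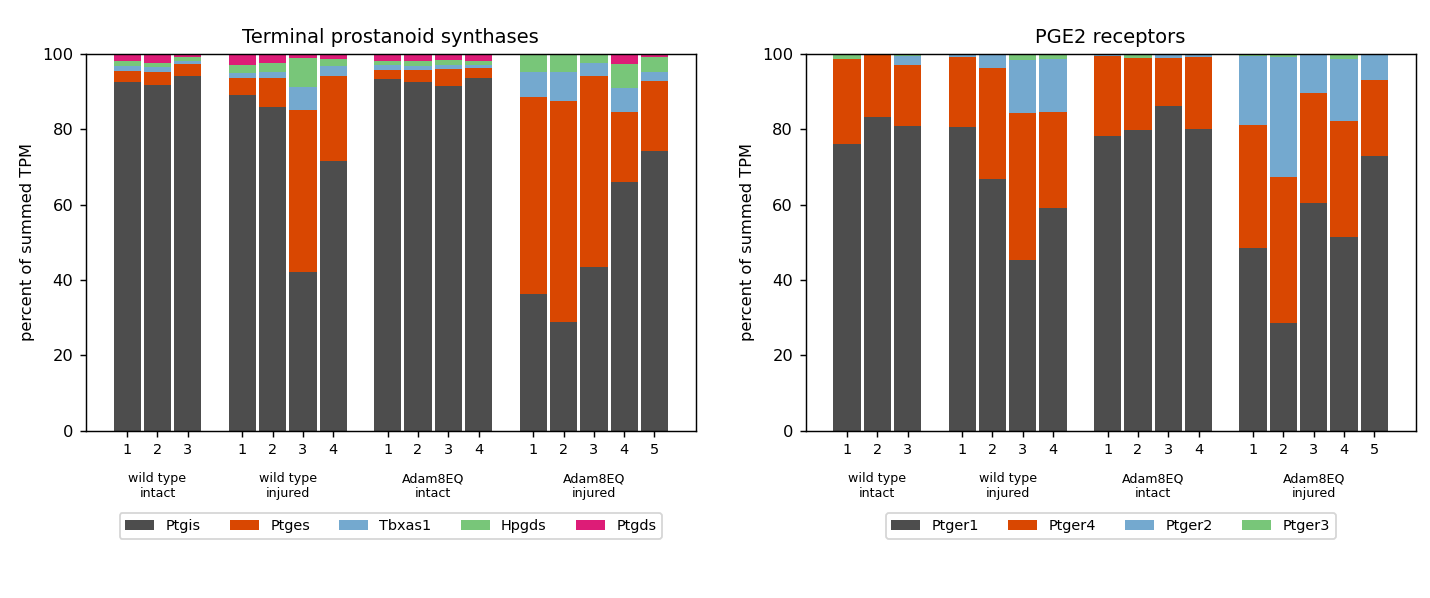
Percent of summed TPM held by each of 5 terminal synthase genes (left) and 4 prostaglandin E2 receptor genes (right), 1 stacked bar per mouse, with mouse numbers and groups on the horizontal axis. Ptgis fills 91.3% to 94.1% of each intact bar, and Ptges exceeds it in injured mutants 1 to 3 and in injured wild-type mouse 3. Ptger1 fills 76.2% to 86.2% of each intact bar.

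The receptor genes Ptger2 and Ptger4 encode EP2 and EP4, which raise cyclic AMP when prostaglandin E2 binds. Ptger2 (ENSMUSG00000037759, chromosome 14, 44988195 to 45003820, plus strand) was near the lower limit of detection in intact discs. It was listed at 0 in intact wild-type mice 1 and 2 and in intact mutant 2, and stood at 0.084 to 0.316 TPM in the other intact discs. It reached 1 TPM, the filter on low values, only in injured discs, so it was tested because of the group in which it is high. In injured mutants Ptger2 was at 3.33, 10.1, 1.74, 3.88 and 1.11 TPM, and each was above all intact discs, with mouse 2 the highest. Ptger2 rose with injury in mutants by 1.96 ± 0.47 (SE) on the log2 scale (limma, adjusted p = 0.00676), a size that depends on the pseudocount and became 4.14 with 0.1 TPM. With only the mutants named M the log2 change of 1.44 did not pass the test (limma, adjusted p = 0.172). Injured wild-type mice 1 to 4 were at 0.087, 0.503, 3.60 and 2.58 TPM, with mouse 1 inside the intact range. The wild-type log2 change was 1.06 ± 0.53 (SE, limma, adjusted p = 0.319). Ptger2 shares exon sequence with the antisense gene Gm17173, which stood at 0 to 8.003 TPM.

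Ptger4 (ENSMUSG00000039942, chromosome 15, 5206661 to 5244187, minus strand) was at 3.29, 3.03, 2.00 and 2.84 TPM in intact mutants and at 5.89, 12.4, 5.02, 7.16 and 3.44 TPM in injured mutants. The groups did not overlap, but injured mouse 5 was close to intact mouse 1. Ptger4 rose with injury in mutants by 0.95 ± 0.31 (SE) on the log2 scale, a linear mean 2.43 times higher (limma, adjusted p = 0.0325). This call was the least stable of the 9. It was lost when any of intact mutants 1 to 4 or injured mutants 1, 2 or 4 was left out, with adjusted p-values of limma from 0.05001 to 0.0835. It was also lost with no filter on low values (limma, adjusted p = 0.0525), with only the mutants named A8 (0.104) and with only those named M (0.237). In wild type Ptger4 was at 3.17, 2.13 and 2.16 TPM in intact discs and at 3.08, 4.34, 9.88 and 4.67 TPM in injured discs, with a log2 change of 0.81 ± 0.36 (SE, limma, adjusted p = 0.268). The gene Ttc33 shares exon sequence with Ptger4 on the opposite strand and was higher, at 16.7 to 37.3 TPM.

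Ptger1, the gene of the receptor EP1, was the most abundant of the 4 prostaglandin E2 receptor genes in intact discs, with 76.2% to 86.2% of their summed TPM. It stood at 8.79 to 13.5 TPM over all 16 mice and its log2 change with injury in mutants was -0.24 ± 0.12 (SE, limma, adjusted p = 0.151). Ptger2 and Ptger4 together made up 13.8% to 22.5% of the sum in intact discs. In injured mutants 1 to 5 they made up 50.9%, 70.5%, 39.2%, 47.3% and 26.8%, and in injured wild-type mice 1 to 4 they made up 19.0%, 32.7%, 53.0% and 39.5%. All 5 injured mutants were above the intact range, while injured wild-type mouse 1 was inside it. Of 7 other prostanoid receptor genes 4 passed the filter, and Ptgir, the prostacyclin receptor, rose in mutants by 1.81 ± 0.52 (SE, limma, adjusted p = 0.0166), from 0.566 to 2.48 TPM in intact discs to 3.48 to 15.4 TPM in injured discs. None of the other 3 passed the test in mutants, where 30.8% of all tested genes were called, and 0 of the 4 passed it in wild type.

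Hpgd (ENSMUSG00000031613, chromosome 8, 56294585 to 56321043, plus strand), which encodes the dehydrogenase that inactivates prostaglandin E2, was low in every group. It was at 1.61, 1.87 and 4.61 TPM in intact wild type and at 0.38, 1.10, 2.51 and 1.83 TPM in injured wild type. In mutants it was at 0.24, 2.62, 0.88 and 1.10 TPM in intact discs and at 0.62, 2.80, 0.36, 1.06 and 0.74 TPM in injured discs. All groups overlapped. The log2 change with injury was -0.05 ± 0.39 (SE) in mutants (limma, adjusted p = 0.93) and -0.59 ± 0.44 (SE) in wild type (limma, adjusted p = 0.498). The values rest on an implied 1 to 20 reads per library. Of 6 other genes of prostaglandin transport and inactivation, Slco2a1, the transporter that takes prostaglandins into cells, rose in mutants by 2.10 ± 0.51 (SE, limma, adjusted p = 0.00743), and Zadh2, a prostaglandin reductase gene, fell by 0.49 ± 0.13 (SE, limma, adjusted p = 0.0138). The other 4 were not called, so the part called is near the 30.8% of all tested genes called in that comparison. Among intact discs Slco2a1 reached 1 TPM only in wild-type mouse 1, so it passed the filter through the injured discs in which it is high.

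**Figure D4:**
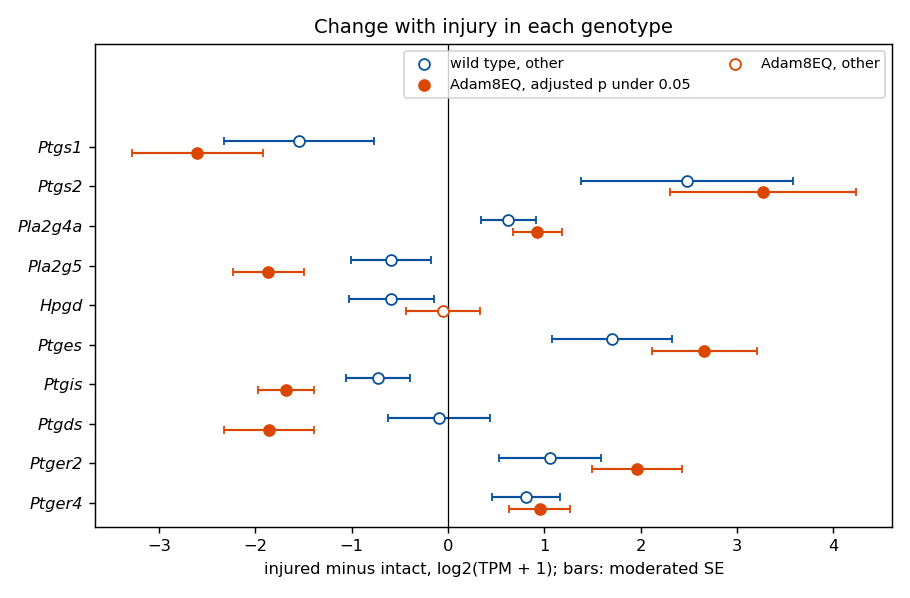
Change with injury (injured minus intact, log2(TPM + 1), horizontal axis) of the 10 genes in wild-type and Adam8EQ mice, with moderated SEs as bars; filled points have an adjusted p under 0.05. All 9 filled points belong to Adam8EQ, from 3.27 for Ptgs2 to -2.60 for Ptgs1.

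Between genotypes, intact discs gave 0 calls among the 10 genes, against 0.0165% of all tested genes. The count at an unadjusted limma p under 0.05 was also 0, against 3.78%. The log2 differences between intact mutants and intact wild type ran from -0.76 ± 0.44 (SE) for Hpgd to 0.29 ± 0.53 (SE) for Ptgds. The intact groups overlapped for all 10 genes, whereas those of 6.18% of all tested genes did not. In injured discs 0 of the 10 passed the limma test, against 0.918% of all tested genes, and 3 had an unadjusted p under 0.05, against 20.3%. These were Ptgds, lower in mutants by a log2 difference of -1.48 ± 0.47 (SE, limma, adjusted p = 0.11), Ptgis, at -0.83 ± 0.29 (SE, limma, adjusted p = 0.138), and Pla2g5, at -0.997 ± 0.365 (SE, limma, adjusted p = 0.151). The injured groups overlapped for all 10 genes, whereas those of 4.77% of all tested genes did not. This comparison turned on single mice. Without injured wild-type mouse 3, the same genes passed the test, with log2 differences of -1.74 for Ptgds (limma, adjusted p = 0.044), -1.17 for Ptgis (limma, adjusted p = 0.0137) and -1.32 for Pla2g5 (limma, adjusted p = 0.0335), and the calls over all genes went from 222 to 2253. Without injured mutant 4, Ptgds passed the test at -1.91 (limma, adjusted p = 0.0295). The difference between the injury changes of the genotypes gave 0 calls among the 10 genes and 0% among all tested genes. Ptgds, Pla2g5 and Ptgis had an unadjusted limma p under 0.05 for it, against 8.18% of all tested genes, with differences of -1.77 ± 0.71, -1.28 ± 0.55 and -0.96 ± 0.44 (SE). The changes called in mutants are therefore not shown to differ from those in wild type, and the wild-type and mutant comparisons of injured with intact discs have no mice in common.

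Genes upstream of Ptgs2 and Ptges, and the parallel branch of arachidonic acid use, were read from lists. The lists were chosen with earlier results of these data known, so their counts are descriptions. Of 8 genes known to induce Ptgs2 and Ptges, 7 passed the filter, and 5 rose and 0 fell with injury in mutants, against 13.1% of all tested genes that rose, with a median log2 change of 2.32. Il1b, the inflammatory cytokine, rose by 3.30 ± 0.98 (SE, limma, adjusted p = 0.0202), Tnf by 2.84 ± 0.68 (SE, limma, adjusted p = 0.00693) and Cebpd, a transcription factor, by 2.38 ± 0.24 (SE, limma, adjusted p = 0.000117). Among intact discs Tnf reached 1 TPM only in mutant 3, so it passed the filter through the injured discs in which it is high. Cebpd also rose in wild type, by 1.54 ± 0.27 (SE, limma, adjusted p = 0.0491), and was the gene of this list called there. Of 10 genes of the lipoxygenase and leukotriene branch 8 passed the filter, and 6 rose and 0 fell in mutants, against the same 13.1%, with a median log2 change of 1.79. Cysltr1, which is among those that rose, was under 1 TPM in every intact disc and was tested because of the injured discs. Alox5ap, which hands arachidonic acid to 5-lipoxygenase, rose by 4.40 ± 0.68 (SE, limma, adjusted p = 0.000785), Ltc4s by 2.08 ± 0.48 (SE, limma, adjusted p = 0.00591) and Alox12 by 1.98 ± 0.36 (SE, limma, adjusted p = 0.00161). Of 10 genes that respond to cyclic AMP, the messenger downstream of EP2 and EP4, 3 rose (Nr4a2, Nr4a3 and Pde4b) and 2 fell (Per1 and Sik1) in mutants, against 30.8% of all tested genes, with a median log2 change of -0.11. In wild type 0 genes of the lipoxygenase and cyclic AMP lists passed the limma test after adjustment.

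The members also moved with markers of other cells. To describe this apart from the groups, group means were taken off log2 values and libraries were correlated over all 16 mice, which share depth and the make-up of the tissue, so that Pearson's r is a description with no test. The genes most like Ptgs1 were Rab38 (r = 0.987), Slc25a23 (r = 0.979) and Slc15a5 (r = 0.978). With T (Brachyury), a transcription factor of notochordal cells, Ptgs1 had r = 0.968. This r was 0.934 without injured mutants 1 and 4, the 2 mice whose log2 level of T, less the group mean, lay farthest from the median. With other notochordal markers Ptgs1 had r = 0.965 (Krt19), 0.922 (Krt8), 0.895 (Krt18) and 0.562 (Cd24a), and Shh and Noto were under 1 TPM in every library. In mutants T stood at 2634, 2828, 1789 and 2916 TPM in intact mice 1 to 4 and at 21.5, 593, 115, 1568 and 721 TPM in injured mice 1 to 5. Intact mutant 3, the lowest intact mouse for Ptgs1, was the lowest intact mouse for T as well, and injured mutant 1 was the lowest of all for both. In mutants 3 of the 5 tested notochordal markers fell with injury, against 17.7% of all tested genes. The list of 7 summed to 3329 to 5503 TPM in intact and 553 to 3345 TPM in injured mutants. In wild type the sum was 5869 to 6431 TPM in intact and 1457 to 5263 TPM in injured discs. There 0 of 5 were called, against 0.116% of all tested genes. The keratinocyte list, which summed to 20.4 to 237 TPM, also followed Ptgs1 (r = 0.924). In it Dsp stood at 7.48 to 215 TPM, while Krt5 did not exceed 0.134 TPM and Krt14 did not exceed 1.51 TPM. The part of notochordal cells in the fall of Ptgs1 was not tested.

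Ptger2 followed markers of myeloid cells most closely. Its r was 0.96 with the summed level of 9 macrophage markers and 0.964 with that of 11 neutrophil markers. These were 0.944 and 0.935 without the 2 mice whose log2 sum, less the group mean, lay farthest from the median. Those mice were injured wild-type mice 1 and 3 for macrophages, and injured mutants 2 and 5 for neutrophils. Injured mutant 2, the highest for Ptger2, was thus kept for macrophages. With the macrophage sum r was 0.834 for Ptgs2, 0.813 for Ptger4, 0.796 for Ptges and 0.731 for Pla2g4a. Without the 2 farthest mice, injured wild-type mice 1 and 3, these were 0.77, 0.70, 0.653 and 0.638. With the neutrophil sum r was 0.819 for Ptgs2, 0.822 for Ptger4, 0.768 for Ptges and 0.808 for Pla2g4a. Positive ties were not particular to the myeloid lists. With the endothelial sum r was 0.762 for Ptger2, 0.672 for Ptgs2, 0.667 for Ptger4, 0.658 for Ptges and 0.546 for Pla2g4a. With the fibroblast and tendon sum r was 0.663, 0.677, 0.558, 0.709 and 0.551 in the same order. Ptger4 was as closely tied, in the opposite direction, to the sum of the markers of chondrocyte-like disc cells (r = -0.854), and Ptges to the notochordal sum (r = -0.803). The macrophage sum was 178 to 212 TPM in intact and 279 to 4088 TPM in injured wild-type discs, and 162 to 275 TPM in intact and 906 to 8326 TPM in injured mutant discs. Of the 9 macrophage markers 8 rose with injury in mutants, against 13.1% of all tested genes. In wild type 0 of the 9 passed the test, against 0.116%. No macrophage marker was at 0 in every library of a group. The neutrophil sum was 6.53 to 19.8 TPM in intact discs, 11.5 to 191 TPM in injured wild-type discs and 19.1 to 1023 TPM in injured mutant discs. With injury in mutants 4 of 9 tested neutrophil markers rose (S100a8, S100a9, Csf3r and Cxcr2), against the same 13.1%. Csf3r and Cxcr2 were under 1 TPM in every intact disc, and S100a8 and S100a9 in every intact disc but wild-type mouse 2. These 4 thus passed the filter through the injured discs in which they are high, and their count is not support. Ly6g and Mpo were at or near 0 (at most 1.56 and 0.430 TPM). The list was split. Elane stood at 1.02 to 2.21 TPM in intact wild-type discs and at 0 in every injured mutant. With injury in mutants Elane changed by -0.29 ± 0.27 (SE, limma, adjusted p = 0.448) and Camp by -0.29 ± 0.41 (SE, limma, adjusted p = 0.488). Retnlg, Mmp8 and Ngp had positive changes that were not called. The genes most like Ptger2 were Zc3h12d (r = 0.983), Sirpb1c (r = 0.98) and Slc15a3 (r = 0.978), and those most like Ptgs2 were Cxcl3 (r = 0.961), Saa3 (r = 0.947) and Mmp13 (r = 0.94). The part of myeloid, endothelial, fibroblast, disc and notochordal cells in the rise of the 5 genes was not tested.

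**Figure D5:**
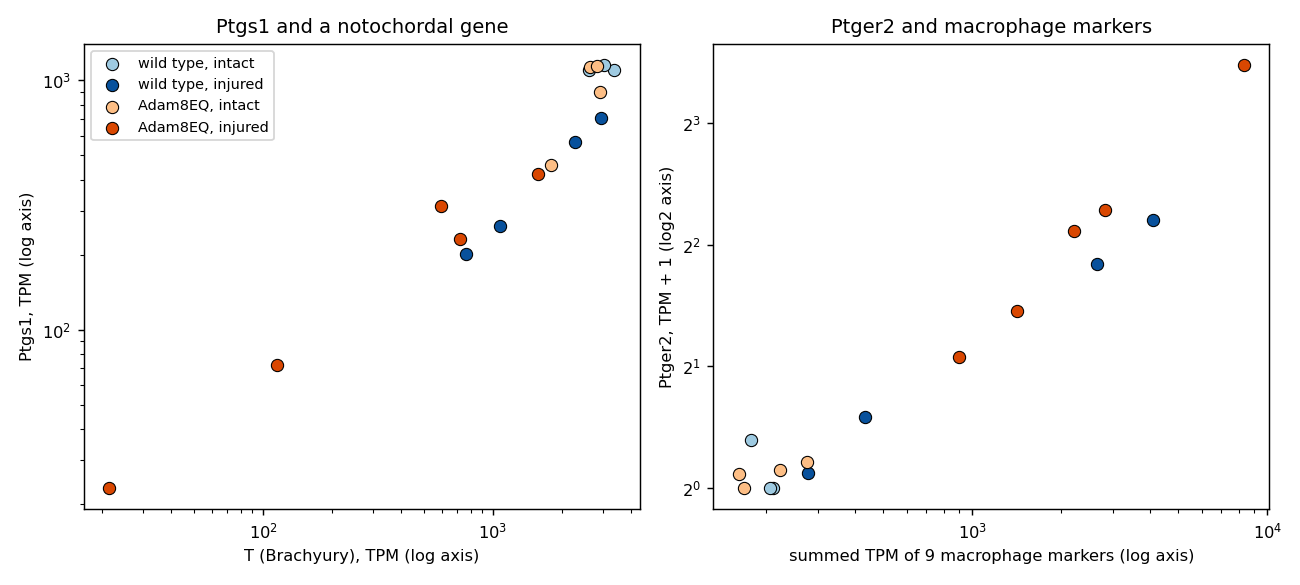
Left, Ptgs1 against T (Brachyury), both in TPM on log axes. Right, Ptger2 as TPM + 1 on a log2 axis against the summed TPM of 9 macrophage markers on a log axis. Each point is 1 mouse, colored by group. Ptgs1 and T are both lowest in injured mutants 1 and 3, and Ptger2 is highest in injured mutant 2, where the macrophage sum reaches 8326 TPM.

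The falling synthases followed other markers. Ptgis had r = 0.86 with the summed level of 8 markers of chondrocyte-like disc cells, and 0.776 without injured mutant 2 and injured wild-type mouse 3, the mice in which that sum was lowest. The genes most like Ptgis were Aldoc (r = 0.962), Cox4i2 (r = 0.955) and Rassf6 (r = 0.948), and those most like Ptges were Slpi (r = 0.95), Irak3 (r = 0.948) and Cyp7b1 (r = 0.946). Ptgds had r = 0.837 with the keratinocyte sum, 0.831 with the notochordal sum and 0.795 with the sum of 8 skeletal muscle markers, and Pla2g4a had r = -0.793 with the muscle sum. Pla2g5 did not exceed r = 0.461 in either direction with any of the 13 marker lists. For Pla2g5 the most similar genes were Copz2 (r = 0.8997), Trpc4 (r = 0.897) and Gstm5 (r = 0.895). The part of disc, notochordal, keratinocyte and muscle cells in these changes was not tested.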

How the data were processed

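Discs Co3/4 to Co6/7 of each mouse were pooled, and Trizol extraction, FastSelect depletion of ribosomal RNA and the NEBNext Ultra II kit gave the libraries, per the labels' protocols. The molecule field of the labels reads polyA RNA. Reads were processed with bcl2fastq 2.20 and the build was GRCm38, per the submitters' processing notes; aligner, counting method and use of strand are not given in the sources used here. The authors deposited TPM values of 49315 genes, 1 column per mouse, and groups came from the titles, since the labels give the genotype of wild-type mice only in part.

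The filter kept genes reaching 1 TPM in 3 or more libraries (24188, all 10 members included). On log2(TPM + 1), limma 3.58.1 in R 4.3.3 was run (lmFit, and eBayes with trend), with all 16 libraries in 1 fit and 5 contrasts. Benjamini-Hochberg adjustment ran over all tested genes, and the threshold was 0.05. SEs are those of the moderated test. The script was tested on simulated data. Positions and lengths came from GENCODE M21 on GRCm38, where 99.3% of identifiers were found, and start-site sequences from RefSeq (GRCm38.p6), with entries for 9 of the 10 members. Dividing TPM by what 1 read is worth put 94.1% to 94.9% of low values, those under 20 reads, within 0.05 of whole numbers, and the implied reads are approximations.

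The members and gene lists were chosen with earlier results of these data known. All 10 members are named in every contrast, and from each list up to 4 called genes by the size of their change. For each member, likeness was the highest Pearson r over libraries after group means were taken off. Replicate numbers belong to different mice and were not used as pairs. Alternatives were a pseudocount of 0.1, no filter, median-of-ratios scaling, quantile normalization, only the groups compared, array weights, a replicate block, the names of the mutant libraries, and leaving out each mouse.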

Additional observations from a re-analysis of the deposited data

Results flagged for a closer look

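Of 30 sets of a member and a group of 4 or 5 mice, 2 held a mouse far from the others, where chance gives about 1 in 20. The gaps were measured on log2(TPM + 1), not on TPM. Ptgis in injured wild-type mouse 3 was at 78.4 TPM, below 187 to 215 TPM in the other 3 mice, a gap of 0.860 of the log2 range of the group. Pla2g5 in injured mutant 3 was at 2.87 TPM, below 8.20 to 11.3 TPM in the other 4 mice, a gap of 0.746 of the log2 range.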

How the results depend on the processing

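The 9 changes called in mutants kept their direction in all 234 combinations of gene and alternative and lost the call in 19, of which 10 were for Ptger4. The number of members called for injury in mutants was 8 to 9 with a mouse left out and 1 with only the mutants named M, a subset with fewer samples. For genotype in injured discs it was 0 to 3 with a mouse left out, and 0 for the other 3 comparisons. The calls over all genes were 28 for injury in wild type (2 to 452 with a mouse left out, the highest without injured mouse 1), 7438 for injury in mutants (5332 to 7985), 4 for genotype in intact discs (1 to 7), 222 for genotype in injured discs (7 to 2253) and 0 for the interaction (0 to 15). Of the called genes for genotype in injured discs, 20.7% were higher in mutants, and 46.8% with median-of-ratios scaling and 34.4% with quantile normalization. For injury in wild type the part was 92.9%, 100% with median-of-ratios scaling and 77.1% with quantile normalization. For injury in mutants it was 42.6%, 52% and 47.9%, so that median-of-ratios scaling turned the balance of all called genes from lower to higher, while the 9 member calls and their directions were the same under both scalings. The cause was not tested.

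With the replicate block, 9 members were called for injury in mutants and 0 in each other comparison, as without it, and the calls over all genes became 5, 6191, 2, 11 and 0 in the same order. The pairing was checked on deviations from the group means: same-numbered libraries had correlations of -0.217 to 0.151 (21 pairs), other pairs of different groups -0.311 to 0.304, and 3 of 16 libraries correlated best with their own number, so the libraries share only a number.

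Signs turned only in changes that were not called. With only the mutants named A8 the log2 value became 0.23 for Hpgd with injury in mutants, 0.029 for Ptgs1, -0.17 for Ptges, -0.035 for Ptgis and -0.12 for Pla2g5 between genotypes in intact discs, and 0.10 for Hpgd between genotypes in injured discs. With only those named M it became -0.27 for Ptgs2, 0.034 for Ptger2 and -0.024 for Ptger4 in intact discs, -0.0084 for Ptger4 and -0.29 for Pla2g4a in injured discs, and -0.059 for Pla2g4a in the interaction. Ptger2 in intact discs became 0.15 with a pseudocount of 0.1, 0.022 with quantile normalization and 0.029 with array weights, and Pla2g4a in injured discs became -0.012 with array weights. Leaving out a mouse turned the sign of Ptgds with injury in wild type (-0.41 to 0.16), of Hpgd with injury in mutants (-0.30 to 0.22), of Ptges (-0.13 to 0.27), Ptgds (-0.021 to 0.54) and Ptger2 (-0.078 to 0.12) in intact discs, of Pla2g4a in injured discs (-0.088 to 0.21), and of Ptgs2 (-0.084 to 1.74) and Ptger4 (-0.081 to 0.42) in the interaction. Hpgd, Ptgds and Ptger2 rest on few reads.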
